A study of Homo sapiens with 4 samples.

Results

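In A2780s epithelial ovarian cancer (EOC) cells, 147 genes had a probe at least 2-fold lower in each of 4 GALNT3-targeted knockout (KO) clones. The comparison was with mock-transfected control (Ctrl) cells. The 147 genes came from 25323 genes whose Ctrl signal was well above background on all 4 arrays, and from 29123 gene names in all. On the scale that chose them, the genes with the lowest ratios encode a neuronal phosphoprotein (ARPP21), a homeobox and a T-box transcription factor (HOXC12 and TBX1), the fatty acid receptor CD36, the growth factor pleiotrophin (PTN) and the Wnt receptor FZD7. Most of these transcripts were lower rather than lost. The KO signal was still well above background on all 4 arrays for 115 genes, on 3 arrays for 11, on 2 for 9, on 1 for 7 and on none for 5. On the scale used for most later ratios, 126 of the 147 genes were at least 2-fold lower on all 4 arrays. Another usable probe missed the threshold for 57 of the 147.

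GALNT3 and GALNT6 encode closely related polypeptide N-acetylgalactosaminyltransferases, Golgi enzymes that place the first sugar of mucin-type O-glycans on secreted and membrane proteins. Such glycans sit on mucins, adhesion molecules and matrix proteins, and an altered O-glycan coat is a known feature of epithelial cancers. The genes described here come from no single pathway, and include secreted proteases, receptors, adhesion molecules, transcription factors and DNA repair genes.

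The clones GAL3 KO-1 plus GAL3 KO-2 of the human line A2780s were made by CRISPR-Cas9 against GALNT3 (GALNT3 KO), and GAL3/6 KO-1 plus GAL3/6 KO-2 carry in addition an shRNA against GALNT6 (GALNT3/T6 KO). The paper describes the latter as derived from GALNT3 KO clones, so the groups may share parent clones and need not be independent. Which clone gave rise to which is not stated. Each array held RNA of 1 KO clone in Cy5 and of the mock-transfected Ctrl clone in Cy3, which gave 2 arrays per group and 4 ratios to Ctrl. The labels describe Ctrl alike on every array, whereas the methods of the study speak of corresponding Ctrl clones, so that whether 1 Ctrl clone served both groups is not settled. The dyes, and with them the sign of every ratio, come from the labels, which give no dye swap, while the methods say only that Ctrl had the opposite colour. Were the dyes of an array exchanged, its ratios would turn in sign. Over 40946 probes the log2 ratios correlated with r = 0.830 between the GALNT3 KO arrays, 0.914 between the GALNT3/T6 KO arrays and 0.199 to 0.322 across the groups, a correlation across probes, which are not independent replicates. Dye and KO status cannot be told apart, nor can the GALNT6 shRNA and its transduction, and the ratios leave out the spread of Ctrl itself. All arrays lay on 1 slide, no spot was saturated, and between 86.9% and 93.8% of gene spots were well above background in a channel. The number of arrays limits the precision. In bulk RNA, fewer cells that express a gene and less RNA per cell cannot be told apart.

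On the GALNT3 KO arrays neither channel of the GALNT3 probe rose well above background, and GALNT3 therefore checks nothing there. Its log2 ratio of KO over Ctrl reached 4.80 and 5.08 with the GALNT3/T6 KO clones, which goes against their label, and their arrays are called the GALNT3/T6-labelled arrays. GALNT6 stood at -0.47 and -0.38 on the GALNT3 KO arrays and at -0.66 and -0.69 on the GALNT3/T6-labelled arrays. In Ctrl, 8 of 10 epithelial ovarian, 5 of 6 mesenchymal, 3 of 4 leukocyte and 2 of 3 endothelial markers were well above background on all 4 arrays, so that a signal above background does not by itself mark a cell type. Keratin 18 (KRT18), an epithelial filament protein, had log2 ratios of 0.73, 0.58, 3.69 and 4.27. Its net Ctrl signal was 261 and 364 on the GALNT3 KO arrays but 15654 and 13866 on the GALNT3/T6-labelled arrays, although the labels describe Ctrl alike. Net Ctrl signals also differed for KRT8 (1579, 2501, 14736 and 17813), KRT19 (2703, 2917, 23404.5 and 10124) and the mesenchymal marker VIM (146638, 205849, 570095 and 448383). They were closer to level for EPCAM (246, 329, 328 and 300) and PAX8 (1893, 1934, 1779 and 1555). The epithelial marker MUC16 had log2 ratios of 0.07, 0.10, 0.11 and 0.0031. For the 147 genes themselves the Ctrl signal, relative to the array, differed between the groups of arrays by a median of -0.029 (log2), against -0.046 over all probes that could be chosen. The part of the keratin, VIM and GALNT3 signals in the results was not tested. Array values are given in the order GALNT3 KO replicates 1 and 2, then GALNT3/T6 KO replicates 1 and 2.

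The rule took the background-subtracted ratio of KO over Ctrl, centred on the median of each array, and kept a gene with a probe at -1 or below (log2) on all 4 arrays. These ratios chose the genes, and the fall against Ctrl is therefore described and was not tested. The threshold was met on all 4 arrays by 147 genes (0.58%), on both GALNT3 KO arrays by 372 genes (1.47%) and on both GALNT3/T6-labelled arrays by 2443 genes (9.65%). In the opposite direction, 123 genes (0.494% of those with a KO signal well above background) were at least 2-fold higher on all 4 arrays. The last genes inside were VPS13A, a lipid transport protein, with ratios of -1.002, -1.44, -1.91 and -1.80, and E2F7, a repressor of the E2F family, with -1.27, -1.60, -2.22 and -1.002. Just outside were PYGM, the glycogen phosphorylase of muscle, whose highest ratio was -0.999, and SFI1, a centrin-binding protein, at -0.998. Leaving out an array can only keep or raise the count, and without GALNT3 KO replicate 1 the rule gave 327 genes.

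**Figure D1:**
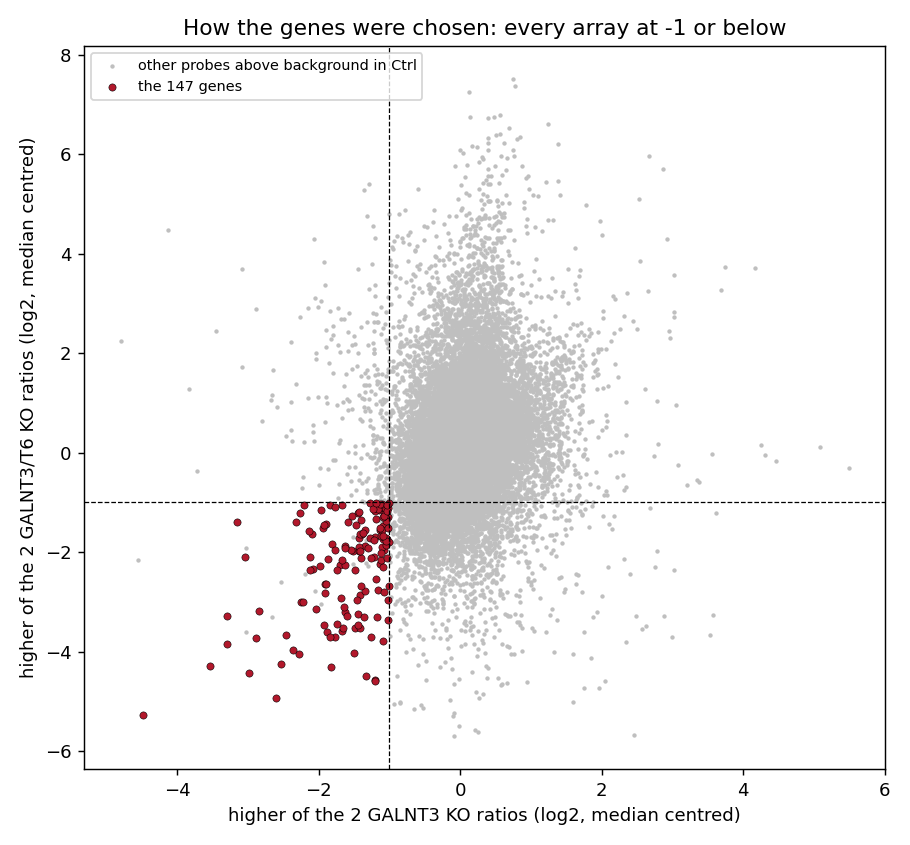
Median-centred log2 ratios of the probes well above background in Ctrl, with the higher of the GALNT3 KO arrays on the x axis and the higher of the GALNT3/T6-labelled arrays on the y axis. Red points are the 147 genes, 1 probe each, which lie below the dashed lines at -1 by construction, and grey points are the other probes.

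The sequence before the transcription start is shown for the 4 genes of lowest mean ratio by the rule that the RefSeq promoter table holds, and for MMP10, so that promoters of genes with a shared low signal can be read side by side. Each is the 250 bases upstream of the start (GRCh38.p14), 5′ to 3′ on the strand of the gene. Capitals mark, on either strand, the TATA letters TATAAA, the CCAAT box, the GC box GGGCGG, the E-box CACGTG, the AP-1 letters TGANTCA and the cAMP response letters TGACGTCA.
ARPP21 (chr3:35639275-35639524, plus strand): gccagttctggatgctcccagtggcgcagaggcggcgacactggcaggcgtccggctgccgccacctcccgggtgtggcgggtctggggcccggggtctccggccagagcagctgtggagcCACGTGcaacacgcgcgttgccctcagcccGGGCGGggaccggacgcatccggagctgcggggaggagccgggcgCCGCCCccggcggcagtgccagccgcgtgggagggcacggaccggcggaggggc
CD36 (chr7:80601957-80602206, plus strand): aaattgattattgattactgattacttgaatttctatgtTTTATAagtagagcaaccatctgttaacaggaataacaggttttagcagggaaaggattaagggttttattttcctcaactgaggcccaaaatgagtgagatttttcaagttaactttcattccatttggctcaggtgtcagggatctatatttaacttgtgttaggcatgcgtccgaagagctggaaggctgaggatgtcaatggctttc
TBX1 (chr22:19756453-19756702, plus strand): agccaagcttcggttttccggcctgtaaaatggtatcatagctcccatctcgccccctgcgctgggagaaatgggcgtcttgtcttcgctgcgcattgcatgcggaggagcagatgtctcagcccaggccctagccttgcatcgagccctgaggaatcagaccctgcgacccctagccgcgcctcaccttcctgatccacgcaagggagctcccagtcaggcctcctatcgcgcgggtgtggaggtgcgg
PTN (chr7:137343734-137343983, minus strand): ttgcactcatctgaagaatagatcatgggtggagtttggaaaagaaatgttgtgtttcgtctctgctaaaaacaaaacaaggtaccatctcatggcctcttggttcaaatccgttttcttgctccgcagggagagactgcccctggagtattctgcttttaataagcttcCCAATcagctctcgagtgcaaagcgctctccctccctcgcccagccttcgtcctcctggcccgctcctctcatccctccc
MMP10 (chr11:102780629-102780878, minus strand): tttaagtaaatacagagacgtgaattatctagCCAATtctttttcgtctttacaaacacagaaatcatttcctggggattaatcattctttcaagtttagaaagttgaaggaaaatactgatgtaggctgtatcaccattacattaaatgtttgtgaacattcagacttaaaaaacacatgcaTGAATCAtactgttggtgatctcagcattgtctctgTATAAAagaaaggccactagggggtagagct
The ARPP21 window, of 77.6% GC, holds CACGTG beginning 129 bases before the start and GGGCGG at 99 bases and, on the opposite strand, at 54 bases. The CD36 window, of 37.2% GC, holds TATAAA on the opposite strand at 211 bases. No searched motif lies in the TBX1 window, and PTN holds CCAAT at 80 bases. The MMP10 window, of 34.4% GC, holds TATAAA at 31 bases, TGANTCA (the letters of an AP-1 element) at 67 bases and CCAAT at 218 bases. A match describes the sequence and is not evidence of binding.

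After background correction and loess normalization, the log2 ratios of the 147 genes had a median of -1.46 in GALNT3 KO and -1.97 on the GALNT3/T6-labelled arrays, or 2.76-fold and 3.93-fold lower. All ratios below are on this scale unless stated, which draws dim spots towards 0, and on which 126 of the 147 genes stood at -1 or below on all 4 arrays. Group means ran from -3.71 to -0.56 in GALNT3 KO and from -4.63 to -0.54 on the GALNT3/T6-labelled arrays. The median standard deviation (SD, n = 2) was 0.11 and 0.14, with the highest values for FAM47E in GALNT3 KO (0.66) and for LSS on the GALNT3/T6-labelled arrays (0.95). On the scale of the rule, 19 genes were at least 4-fold lower on every array and 4 of these at least 8-fold. The genes were not confined to dim probes, as their median net Ctrl signal was 1659.9 against 1006 over all probes that could be chosen. Over all probes tested, both GALNT3/T6-labelled arrays lay below both GALNT3 KO arrays for 31.9% and above both for 30.5%. These shares belong beside each statement on overlap below.

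**Figure D2:**
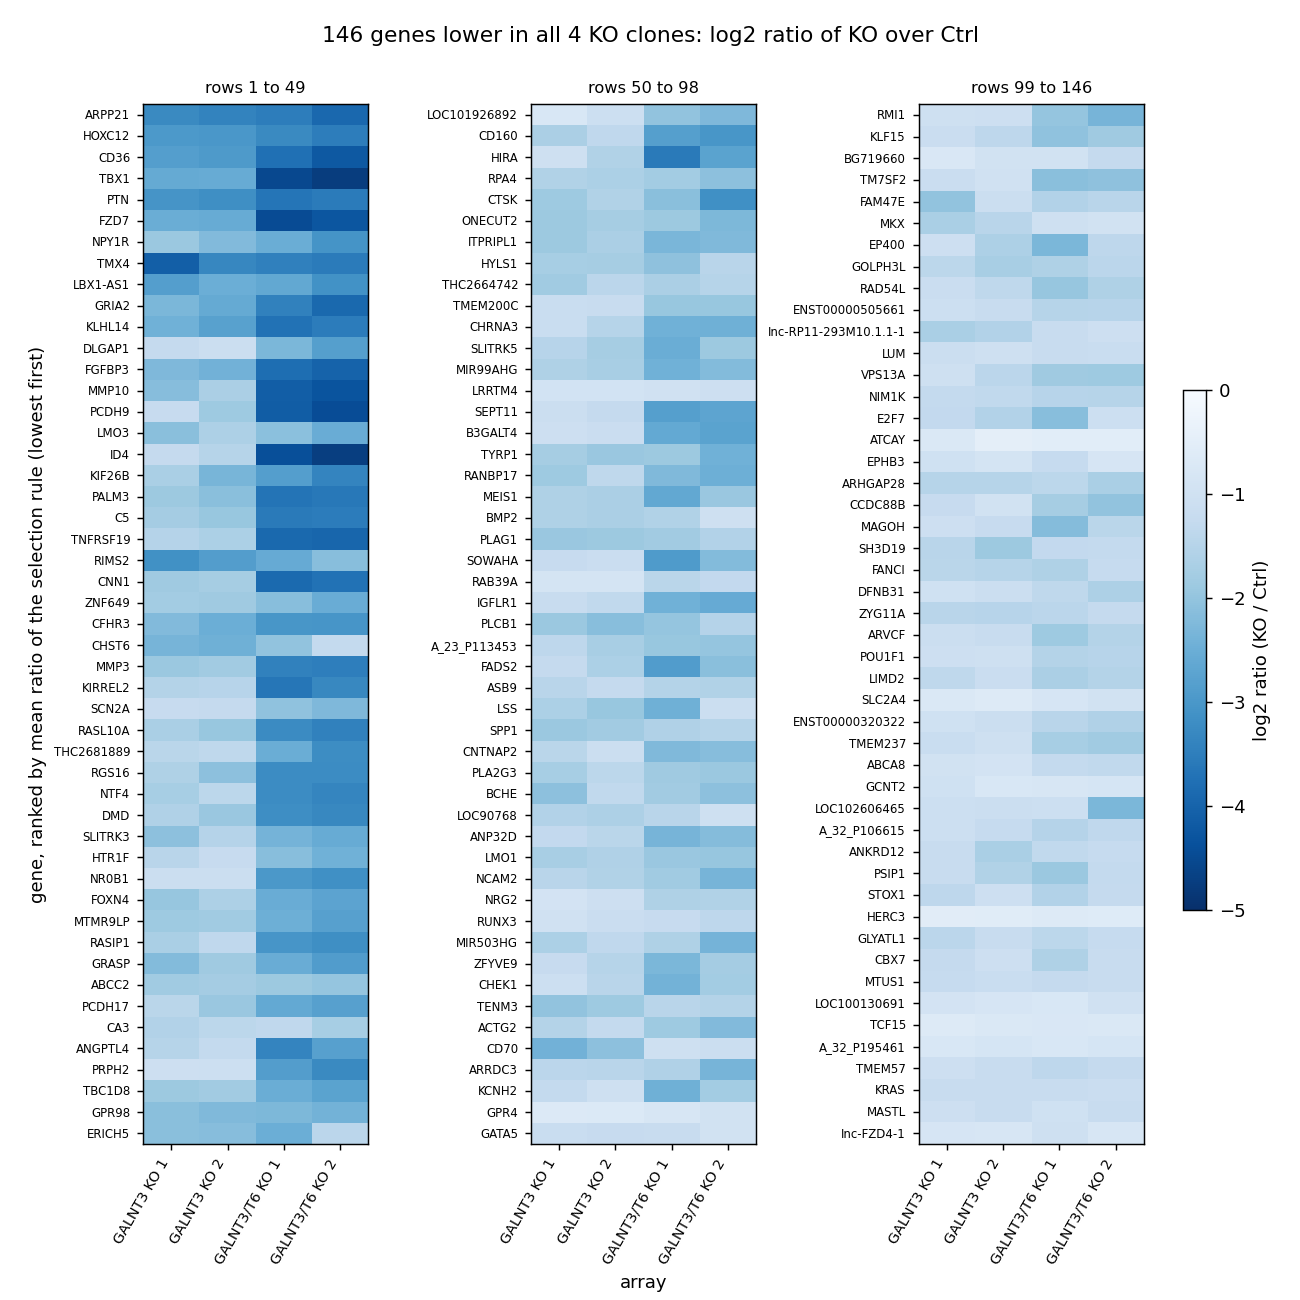
Log2 ratio of KO over Ctrl (colour) for 146 of the 147 genes (rows, ordered by the mean ratio of the rule) on the 4 arrays (columns). The medians over the 147 genes were -1.46 and -1.46 on the GALNT3 KO arrays and -2.03 and -1.98 on the GALNT3/T6-labelled arrays.

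ARPP21, a cAMP-regulated phosphoprotein of neurons, had the lowest mean ratio on the scale of the rule. Its net Ctrl signals were 968, 1281, 1310.4 and 1240.2 and its KO signals 29.2, 32.6, 17.3 and 27.9, with no KO signal well above background. The fall was therefore at least 9.40-fold in GALNT3 KO and at least 11.2-fold on the GALNT3/T6-labelled arrays. Such bounds set Ctrl against the higher of the KO signal and the dimmest probe well above background, and are open to dye bias. NPY1R, a neuropeptide Y receptor, was likewise dim in every KO clone, and at least 3.999-fold and 5.98-fold lower. TMX4, a thioredoxin-related membrane protein of the endoplasmic reticulum, was bright in Ctrl. Its net Ctrl signals were 73832, 104689, 104542 and 104091 and its KO signals 3008, 6177, 5430.2 and 9502. The log2 ratios were -4.09 and -3.33 in GALNT3 KO and -3.44 and -3.55 on the GALNT3/T6-labelled arrays, with mean falls of 13.1-fold and 11.3-fold. The groups overlapped on this probe, the brightest, but not on the other TMX4 probes that met the rule. On the scale of the rule, these gave -4.56, -4.66, -2.40 and -2.16, and -3.54, -3.03, -2.01 and -1.91. The TMX4 probe that missed the rule gave -2.66, -0.72, -0.83 and -1.38, with overlap.

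Among developmental transcription factors, HOXC12, of the HOXC cluster, had log2 ratios of -2.97 and -2.999 in GALNT3 KO. It was at least 10.5-fold lower on the GALNT3/T6-labelled arrays, where it was not well above background. TBX1, a T-box factor of pharyngeal and heart development, had -2.58 and -2.55 in GALNT3 KO and -4.51 and -4.74 on the GALNT3/T6-labelled arrays. These are falls of 5.93-fold and 24.7-fold, and the groups did not overlap. MEIS1, a cofactor of HOX proteins, had -1.61, -1.68, -2.63 and -1.93. These 3 genes were 3.33% of 90 measured homeobox and developmental factors, a list with a median of 0.0071 in GALNT3 KO and -0.22 on the GALNT3/T6-labelled arrays, against 0.013 and 0.012 over all genes that could be chosen. Of all those genes 0.58% were chosen, the share to set beside this list and those below. LMO3, a LIM-only transcriptional cofactor, had -2.12 and -1.62 in GALNT3 KO and was at least 4.52-fold lower on the other arrays, where it was dim. MKX, the Mohawk homeobox factor of tendon, was closer to Ctrl on the GALNT3/T6-labelled arrays, at -1.68 and -1.45 in GALNT3 KO and -1.04 and -0.95 on the GALNT3/T6-labelled arrays. ZNF649, a zinc finger gene, was the 1 gene chosen of 516 measured zinc finger genes (0.194%), at -1.80, -1.85, -2.15 and -2.52.

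Ligands, receptors and inhibitors of growth factor signalling were also among the 147 genes. ID4, which blocks basic helix-loop-helix transcription factors, showed the widest gap between the groups. Its log2 ratios were -1.26 and -1.497 in GALNT3 KO and -4.40 and -4.72 on the GALNT3/T6-labelled arrays, which are falls of 2.60-fold and 23.6-fold. BMP2, a bone morphogenetic protein, was dim in GALNT3 KO, with a fall of at least 3.11-fold, and had -1.57 and -1.04 on the other arrays. ID4 and BMP2 were 5% of 40 measured BMP, TGF-beta and ID genes, with a list median of -0.020 in GALNT3 KO and -0.11 on the GALNT3/T6-labelled arrays.

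FZD7, a Frizzled receptor for Wnt ligands, had net Ctrl signals of 20694, 31209, 33318 and 31026 and KO signals of 2405, 2825, 668 and 1484. Its log2 ratios were -2.52 and -2.54 in GALNT3 KO and -4.46 and -4.26 on the GALNT3/T6-labelled arrays, with no overlap, and it was the 1 gene chosen of 43 measured Wnt pathway genes, whose median was 0.070 in GALNT3 KO and 0.065 on the GALNT3/T6-labelled arrays. PTN, a heparin-binding cytokine, was low in all clones, at -3.05, -3.18, -3.66 and -3.54. NRG2, a neuregulin that binds ERBB receptors, had -0.92, -1.06, -1.61 and -1.56. PTN and NRG2 were 3.57% of 56 measured growth factors and receptor tyrosine kinases, whose median was 0.027 in GALNT3 KO and 0.43 on the GALNT3/T6-labelled arrays. FGFBP3, a carrier of fibroblast growth factors, had -2.26, -2.41, -3.80 and -4.01, and TNFRSF19, of the tumor necrosis factor receptor family, had -1.52, -1.66, -3.90 and -3.96. The ephrin receptor EPHB3, of 48 measured axon guidance genes (median -0.0017 in GALNT3 KO and -0.085 on the GALNT3/T6-labelled arrays), had -1.01, -0.88, -1.25 and -0.84. CD70, the ligand of CD27, was closer to Ctrl on the GALNT3/T6-labelled arrays, at -2.41 and -2.08 in GALNT3 KO and -1.05 and -1.10 on the GALNT3/T6-labelled arrays.

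**Figure D3:**
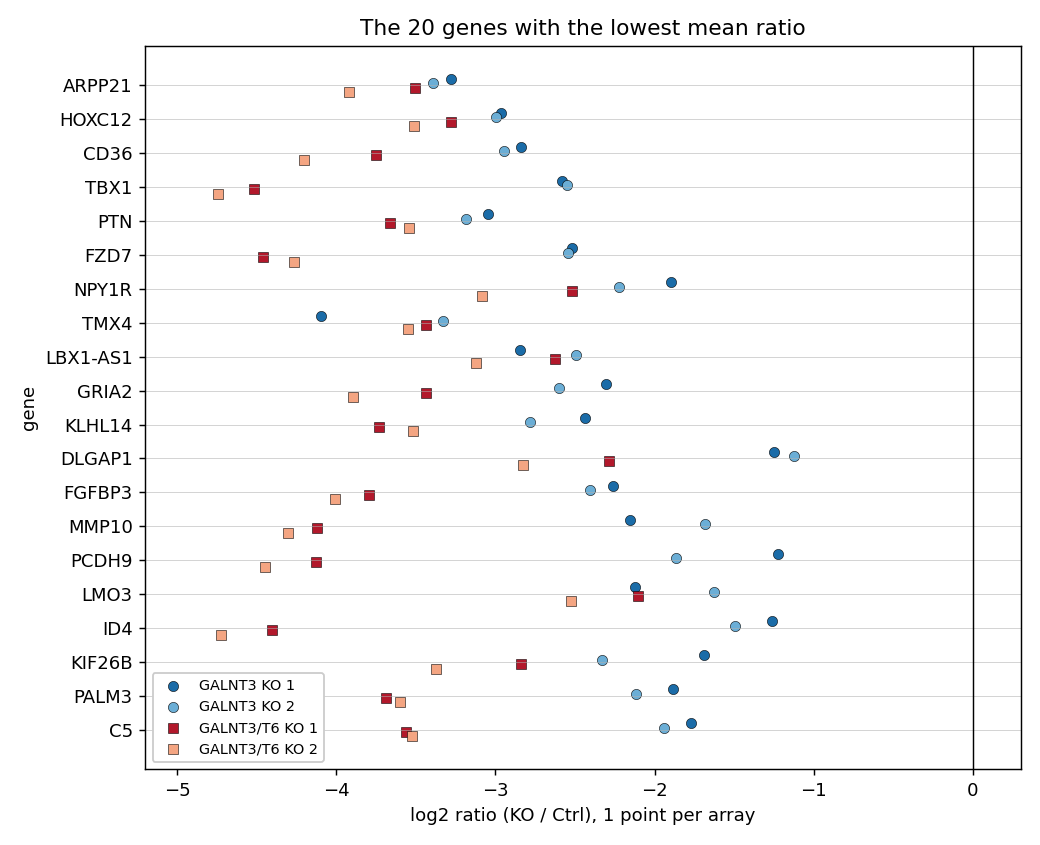
Log2 ratio of KO over Ctrl (x axis) for the 20 genes of lowest mean ratio by the rule (y axis), 1 point per array, circles for GALNT3 KO and squares for GALNT3/T6 KO. The squares of ID4 (-4.40 and -4.72) lie far left of its circles (-1.26 and -1.497). On the probe drawn, circles and squares overlap for TMX4, LBX1-AS1 and LMO3.

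Matrix proteases and matrix proteins were few in number, though their shares of the measured genes were above the 0.58% over all genes that could be chosen. MMP10 and MMP3, stromelysins that degrade matrix proteins, are neighbours on chromosome 11. MMP10 had net Ctrl signals of 10831, 13704, 15024 and 13723 and KO signals of 1615, 2254, 378 and 629. Its log2 ratios were -2.15 and -1.68 in GALNT3 KO and -4.12 and -4.30 on the GALNT3/T6-labelled arrays. Those of MMP3 were -1.91 and -1.81 in GALNT3 KO and -3.42 and -3.50 on the GALNT3/T6-labelled arrays, and for neither gene did the groups overlap. The 60-base probes of these paralogs share no run longer than 6 bases. They were 7.41% of 27 measured matrix proteases and inhibitors, whose median was 0.027 in GALNT3 KO and 0.078 on the GALNT3/T6-labelled arrays. SPP1 (osteopontin) had -1.91, -1.80, -1.60 and -1.4999, and LUM (lumican, a matrix proteoglycan) had -1.12, -1.02, -1.21 and -1.16. Both were the genes chosen of 92 measured matrix genes, with a median of 0.060 in GALNT3 KO and 0.23 on the GALNT3/T6-labelled arrays.

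CD36, a scavenger receptor that takes up long-chain fatty acids, led the lipid genes. Its net Ctrl signals were 2336, 2717, 2756 and 2647 and its KO signals 198, 178, 65.3 and 91.95. The log2 ratios were -2.84 and -2.94 in GALNT3 KO and -3.75 and -4.20 on the GALNT3/T6-labelled arrays, and it was the 1 gene chosen of 31 measured genes of fatty acid uptake and lipid handling, whose median was 0.029 in GALNT3 KO and 0.085 on the GALNT3/T6-labelled arrays. The 20 measured genes of cholesterol synthesis, a list drawn up after values were seen, had a median of -0.50 in GALNT3 KO and -0.75 on the GALNT3/T6-labelled arrays, with 17 and 14 genes below 0, and LSS (lanosterol synthase) and TM7SF2 (a sterol reductase) were among the 147 genes. LSS had -1.65 and -1.94 in GALNT3 KO, but the GALNT3/T6-labelled arrays disagreed, at -2.45 and -1.11. TM7SF2 had -1.15, -0.99, -2.12 and -2.07. FADS2, a fatty acid desaturase, had -1.26, -1.66, -2.87 and -2.12. It was the 1 gene chosen of 16 measured genes of fatty acid synthesis, a list also drawn up after values were seen. The median of that list was -0.29 in GALNT3 KO and -0.070 on the GALNT3/T6-labelled arrays.

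SLITRK5, LRRTM4, CNTNAP2, NCAM2 and TENM3 were 12.2% of 41 measured genes of neural and synaptic adhesion, while the median of that list was 0.043 in GALNT3 KO and -0.12 on the GALNT3/T6-labelled arrays. CNTNAP2, a neurexin-like protein, had -1.44, -1.09, -2.24 and -2.16. SLITRK5, which acts at synapses, had -1.48, -1.74, -2.50 and -1.88, and NCAM2, an adhesion molecule of the immunoglobulin family, had -1.46, -1.58, -1.83 and -2.35. LRRTM4, a synaptic membrane protein, was dim in every KO clone, at least 1.55-fold and 1.80-fold lower. The protocadherins PCDH9 and PCDH17 were 2.67% of 75 measured cadherins and protocadherins (median 0.16 in GALNT3 KO and 0.0025 on the GALNT3/T6-labelled arrays). PCDH9 had -1.23 and -1.86 in GALNT3 KO and -4.13 and -4.45 on the GALNT3/T6-labelled arrays, and PCDH17 had -1.44 and -1.93 in GALNT3 KO and -2.60 and -2.80 on the GALNT3/T6-labelled arrays, without overlap in either case.

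Receptors and channels of excitable cells were present too. GRIA2, a subunit of AMPA-type glutamate receptors, had -2.30 and -2.60 in GALNT3 KO and -3.44 and -3.89 on the GALNT3/T6-labelled arrays. With NPY1R, the serotonin receptor HTR1F and the nicotinic subunit CHRNA3, it made up 3.51% of 114 measured transmitter and neuropeptide receptors, a list drawn up after values were seen with a median of 0.15 in GALNT3 KO and 0.098 on the GALNT3/T6-labelled arrays. SCN2A, a sodium channel, had -1.23 and -1.26 in GALNT3 KO and was at least 3.82-fold lower on the other arrays, where it was dim. KCNH2, the hERG potassium channel, had -1.27, -1.04, -2.45 and -1.78. Both were 1.39% of 144 measured channels (median 0.075 in GALNT3 KO and 0.036 on the GALNT3/T6-labelled arrays). DLGAP1, a scaffold of the postsynaptic density, had -1.25 and -1.12 in GALNT3 KO and was at least 4.32-fold lower on the other arrays, where it was dim.

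C5, a complement component, had -1.77 and -1.94 in GALNT3 KO and -3.56 and -3.52 on the GALNT3/T6-labelled arrays. Smooth muscle genes were grouped after values were seen. CNN1 (calponin) had -1.85, -1.74, -3.88 and -3.73 and ACTG2 (a smooth muscle actin) had -1.53, -1.28, -1.86 and -2.22. These were the genes chosen of 16 measured smooth muscle genes (median -0.12 in GALNT3 KO and -0.35 on the GALNT3/T6-labelled arrays).

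CHEK1, the checkpoint kinase of stalled replication, had -1.08, -1.46, -2.39 and -1.79, and FANCI, of the Fanconi anemia pathway, had -1.43, -1.49, -1.62 and -1.24. They were 4.65% of 43 measured DNA repair genes, a list with a median of -0.31 in GALNT3 KO and -0.65 on the GALNT3/T6-labelled arrays and with 37 and 36 genes below 0. Over all genes that could be chosen, 48.5% and 49.0% were below 0. In a wider list of homologous recombination and checkpoint genes, drawn up after values were seen, 7 of 28 were chosen (25%), and 28 and 24 were below 0. Of these, RMI1, which acts in the dissolution of recombination intermediates, had -1.03, -1.07, -1.98 and -2.35, and RAD54L, a recombination motor protein, had -1.14, -1.35, -1.97 and -1.61. MASTL, a mitotic kinase, was nearly level across the clones on its chosen probe, at -1.07, -1.18, -1.002 and -1.20. On the scale of the rule, a further MASTL probe gave 0.593, -0.626, -1.0996 and -0.673. On the same scale, further FANCI probes gave -0.573, -0.379, 1.104 and -0.0799, and -0.503, -0.859, -1.094 and -0.277.

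Sugar-modifying enzymes were read because the targeted genes start O-glycans. Of 114 measured genes 3 were chosen (2.63%), and the list median was -0.021 in GALNT3 KO and 0.0072 on the GALNT3/T6-labelled arrays. B3GALT4, a galactosyltransferase of ganglioside synthesis, had -1.06 and -1.15 in GALNT3 KO and -2.60 and -2.75 on the GALNT3/T6-labelled arrays. CHST6, a sulfotransferase of keratan sulfate, was dim in GALNT3 KO, with a fall of at least 4.90-fold, and had -2.02 and -1.28 on the other arrays. GCNT2, which branches poly-N-acetyllactosamine chains, had -1.01, -0.77, -0.79 and -0.85.

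The other leading genes share no evident role. KLHL14, of the Kelch-like family, had -2.43, -2.78, -3.73 and -3.52, and the kinesin gene KIF26B had -1.69, -2.33, -2.84 and -3.37. For both, a further probe was far closer to 0 on the scale of the rule. It gave -0.17, 0.016, -0.055 and -0.13 for KLHL14, and -0.21, -0.34, -0.28 and -0.51 for KIF26B. PALM3, of the paralemmin family, had -1.88, -2.12, -3.69 and -3.60. LBX1-AS1, an RNA antisense to LBX1, had -2.84, -2.49, -2.62 and -3.12. SLC2A4, an insulin-responsive glucose transporter, was the 1 gene chosen of 345 measured solute carriers (0.290%), at -0.74, -0.65, -0.83 and -0.96. In 9 of 25 lists no gene was chosen, namely imprinted genes, oncofetal RNA-binding and HMGA genes, ERK feedback genes, carbonyl metabolism, cancer testis antigens, the respiratory chain, ribosomal proteins, histones and MAP kinases. Of the 147 genes, 99 were in no list. Of 16 genes the study picked from these arrays for qPCR, 6 were among the 147 (CD36, PCDH9, ID4, MMP10, MMP3 and BMP2), which is no independent evidence.

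The groups were then compared with each other, which asks whether the shared genes fell alike in both groups of arrays. Beside the GALNT6 shRNA, the groups differ in clone and in the GALNT3 and Ctrl signals given above. No difference is therefore assigned to the shRNA. Over 38241 probes, limma called 12.8% lower and 12.5% higher on the GALNT3/T6-labelled arrays than in GALNT3 KO (adjusted p at most 0.05). Of the 147 genes, 53 (36.1%) were lower, 2 (1.36%) were higher and 92 did not pass. The median difference was -0.50 (log2), against -0.0047 over all probes tested. The imbalance is not independent of the rule, because the same arrays chose the genes and far more genes met the threshold on the GALNT3/T6-labelled arrays, and nothing is read from it. With 1 array left out, a group is a single array that is assumed to vary like the pair of the other group, so that such values say nothing of stability. Without GALNT3 KO replicate 1 there were 14 lower and 0 higher calls, and without GALNT3 KO replicate 2 there were 18 and 0. Without GALNT3/T6 KO replicate 1 there were 72 and 9.

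The lowest differences were those of ID4 (-3.18 ± 0.17, standard error, limma adjusted p = 0.000712) and PCDH9 (-2.74 ± 0.26, 0.00288). TNFRSF19 (-2.34 ± 0.12, limma adjusted p = 0.00067) and MMP10 (-2.29 ± 0.20, 0.00236) were also among the lowest. Each was lower on both GALNT3/T6-labelled arrays than on both GALNT3 KO arrays, as were 31.9% of all probes tested. CD70 (1.17 ± 0.16, limma adjusted p = 0.00774) and MKX (0.57 ± 0.14, 0.043) were higher. MKX did not pass with the replicate block (limma adjusted p = 0.0837). Of the named genes, 21 were called. Whether each call held with an array left out is not read, since a group is then a single array. For genes dim in both groups, such as ARPP21 and NPY1R, no difference is given. For PTN the difference was -0.49 ± 0.13 (limma adjusted p = 0.0511), and a p that misses the threshold does not show that the groups were equal.

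**Figure D4:**
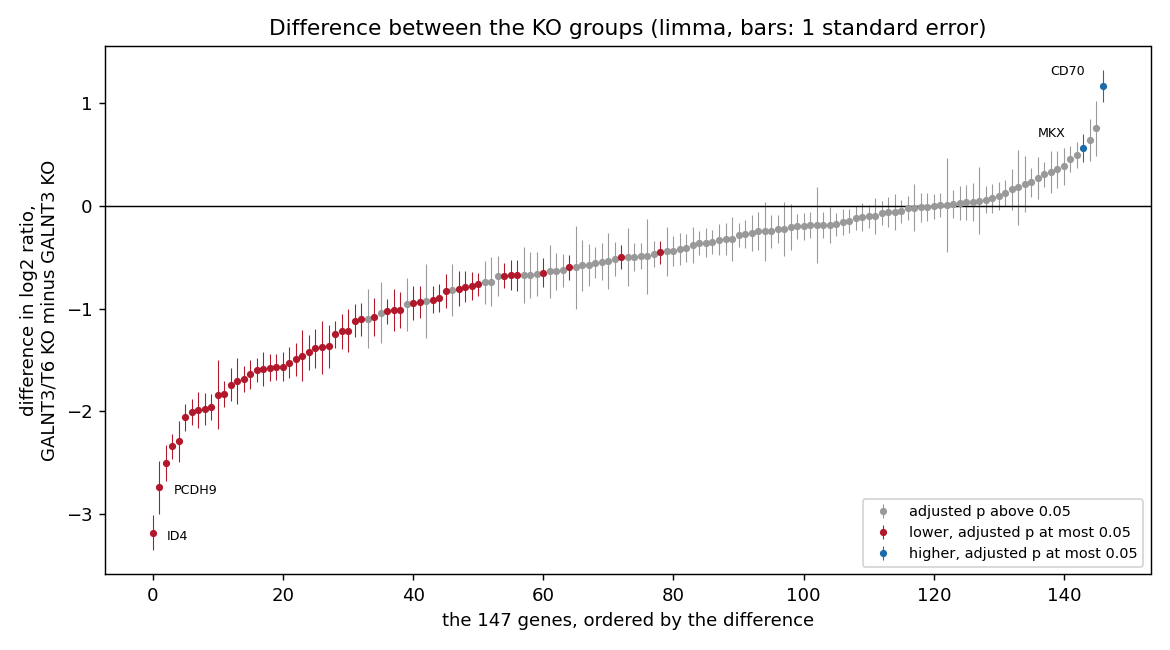
Difference in log2 ratio between the GALNT3/T6-labelled arrays and GALNT3 KO (y axis, bars are 1 standard error from limma) for the 147 genes in order (x axis). Colours mark the 53 genes called lower (36.1%) and the 2 called higher (1.36%), against 12.8% and 12.5% of all 38241 probes. Values run from -3.18 (ID4) to 1.17 (CD70).

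The rule asked for only 1 passing probe per gene, and other usable probes of the same gene could miss it. Of the 147 genes, 80 had 1 usable probe and 67 had several. Every usable probe met the rule in 10 of the 67, among them ARPP21, CD36, FGFBP3, MIR99AHG, NCAM2, PCDH9, PTN, TNFRSF19 and ZNF649. The other 57 genes had 80 further probes, of which 37 were below 0 on all 4 arrays, 26 were mixed and 17 were above 0 on all 4. The latter belonged to 15 genes, among them FADS2, KCNH2, LRRTM4, LSS, NRG2 and SLC2A4. On the scale of the rule, a further KCNH2 probe gave 0.098, 0.12, 0.22 and 0.15. For GRIA2, further probes gave -0.39, 0.23, 0.30 and -0.40, and -0.43, -0.60, -0.79 and -0.61. A further PCDH17 probe, by contrast, gave -0.75, -1.20, -2.25 and -2.46, low on all 4 arrays. Whether such probes read different transcript forms was not tested.

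The 147 genes lay on every chromosome from 1 to 22 and on X. The share of measured genes was 0.58% over all, and of chromosomes 1 to 22 it was highest on chromosome 18 (6 of 380 genes, 1.58%) and lowest on chromosome 16 (1 of 1065, 0.0939%), and chromosome 1 held the most (15 of 2481). These small counts were not tested. By probe position (hg19), 7 pairs lay within 200 kb. Among them were MMP10 and MMP3, GOLPH3L and CTSK, IGFLR1 and KIRREL2, HOXC12 and an unnamed transcript, and ARRDC3 and DMD each with an unnamed probe. The MMP10 probe (chr11:102641405-102641464) and the MMP3 probe (chr11:102706694-102706753) lay 65.3 kb apart, and the 2 measured genes between them had a median of -0.23 in GALNT3 KO and -0.12 on the GALNT3/T6-labelled arrays.

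Within 2 Mb, a distance chosen after values were seen, lay 37 pairs formed by 58 genes, 32 of them pairs with none of the 147 genes between. HIRA (a histone chaperone), TBX1 and ARVCF (a catenin) follow each other on chromosome 22. The 9 measured genes between HIRA and TBX1 had a median of -0.0074 in GALNT3 KO and -0.63 on the GALNT3/T6-labelled arrays, and the 7 between TBX1 and ARVCF had -0.23 in GALNT3 KO and -0.67 on the GALNT3/T6-labelled arrays. BMP2, TMX4 and PLCB1 (a phospholipase C) follow each other on chromosome 20. The 1 measured gene between BMP2 and TMX4 had -0.33 in GALNT3 KO and -0.34 on the GALNT3/T6-labelled arrays, and the 2 between TMX4 and PLCB1 had a median of -0.0014 in GALNT3 KO and 0.021 on the GALNT3/T6-labelled arrays.

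Promoters were compared over the 250 bases upstream of the start, for the 101 of the 147 genes and the 13872 measured genes that the RefSeq table holds. The median GC content was 64.4% and 63.2%, and the median ratio of observed to expected CpG was 0.684 and 0.769. TATAAA was held by 11 of the 101 (10.9%, against 7.78% of all), among them CD36, ID4, MMP10 and ARHGAP28. CCAAT was held by 37.6% against 34.8%, GGGCGG by 61.4% against 59.9%, and CACGTG by 4.95% against 8.17%. TGANTCA was held by 4 genes (BCHE, DMD, LMO1 and MMP10, 3.96% against 4.46%) and TGACGTCA by 2 (MAGOH and MASTL, 1.98% against 2.47%). No share was tested.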

How the data were processed

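RNA of 4 A2780s KO clones (Cy5) was hybridized with Ctrl RNA (Cy3) on Agilent human arrays. The authors deposited spot intensity values and a log10 ratio (KO over Ctrl, dye-normalized by Agilent), and a value table of the same log10 ratios within rounding. Feature Extraction is version 8.5.1.1 in the submitters' processing notes and 10.7.3.1 per the file headers, which place probes on hg19.

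From the deposited intensities, net signals (mean minus median background, floored at 1) gave the ratio of the rule for 41000 probes. A probe was well above background if all its spots were, and the brightest probe that met the rule stood for a gene. All other values came from limma 3.58.1 (R 4.3.3), with normexp (offset 50) and loess. The groups were compared with Benjamini-Hochberg adjustment over 38241 probes, and the fit was tested on simulated data. Replicates are clones, 2 per group, and p-values measure the spread between them. Thresholds, normalization, background, filters, probe averaging, a replicate block and left-out arrays were varied. The numbers 1 and 2 name clones and are not stated to pair them by parentage.

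Members, lists and tests were chosen with earlier results of these data known. Named genes were the 20 of lowest mean ratio, the qPCR panel, up to 4 per list, the 5 lowest and highest differences and those at the threshold. Others were chosen after their values were seen. Some results are not reported here. RefSeq matched 132 genes by accession, 3 by symbol and 2 by synonym, and 10 stayed unmatched.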

Additional observations from a re-analysis of the deposited data

Results flagged for a closer look

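Between the groups, 53 of the 147 genes (36.1%) were called lower and 2 (1.36%) higher on the GALNT3/T6-labelled arrays than in GALNT3 KO by limma. Over all 38241 probes, 12.8% were called lower and 12.5% higher. The difference between groups is not independent of how the genes were chosen. The named genes with a difference (log2) below -2 were ID4 (-3.18), PCDH9 (-2.74), TNFRSF19 (-2.34), MMP10 (-2.29) and TBX1 (-2.06). Those between -2 and -1.5 were FZD7 (-1.83), C5 (-1.69), PALM3 (-1.64), MMP3 (-1.60), B3GALT4 (-1.57) and FGFBP3 (-1.57). The smaller falls were those of DLGAP1 (-1.37), GRIA2 (-1.21), CD36 (-1.08), PCDH17 (-1.02), KLHL14 (-1.01), CNTNAP2 (-0.94), SCN2A (-0.91) and NRG2 (-0.60). DLGAP1 and SCN2A were dim on the GALNT3/T6-labelled arrays, and there at least 1.61-fold and 1.44-fold lower than in GALNT3 KO. CD70 (1.17) and MKX (0.57) were higher.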

How the results depend on the processing

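The number of genes chosen was 52 at a threshold of -1.5, 681 at a 1.5-fold fall, 281 with no filter on Ctrl and 90 where every usable probe had to pass, a setting chosen after seeing the data. The number chosen was 153 to 327 with 1 array left out, which can only keep or raise it. Calls of a difference numbered 14 to 72 lower and 0 to 9 higher with 1 array left out, and 5 were higher with probes averaged. With the replicate number as a block there were 43 lower and 1 higher calls, and with the crossed pairing, chosen after seeing the data, 61 and 1. Same-numbered arrays deviated with a correlation of -0.22. The median difference was -0.63 on the scale of the rule and -0.67 with Agilent's log ratio and the value table. The median ratio on the GALNT3/T6-labelled arrays was -2.21 on the scale of the rule. With Agilent's log ratio the group medians were -1.61 and -2.34, and with probes averaged -1.21 and -1.55. Differences of 9 named genes changed sign, none of them called as reported or in the setting that turned it. With both Agilent's log ratio and the value table they were EPHB3 (0.048), FANCI (-0.14), GCNT2 (-0.12), LBX1-AS1 (0.51), LUM (0.052 and 0.051) and SLC2A4 (0.023 and 0.022), and with no background correction GCNT2 (-0.082). With 1 array left out, differences ran from -0.21 to 0.082 for ARHGAP28, -0.71 to 0.34 for E2F7, -0.30 to 0.11 for EPHB3, -0.16 to 0.23 for FANCI, -0.045 to 0.20 for GCNT2, -0.45 to 0.044 for LBX1-AS1 and -0.16 to 0.60 for TMX4. The cause was not tested. Of the 21 named genes called, 17 passed in each setting they were fitted in, other than left-out arrays and the crossed pairing, which was run for the totals alone. DLGAP1, SCN2A and NRG2 could not be fitted with both channels well above background. CD36, GRIA2 and NRG2 did not pass with probes averaged, nor MKX and NRG2 with the block. Dim KO signals leave only bounds for 10 genes in GALNT3 KO and 13 on the GALNT3/T6-labelled arrays.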

Other observations

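Further genes of the set were chosen here after their values were seen, and were also called lower on the GALNT3/T6-labelled arrays by limma. NR0B1, an orphan nuclear receptor of adrenal and gonadal development, had log2 ratios of -1.13 and -1.10 in GALNT3 KO and -2.98 and -3.16 on the GALNT3/T6-labelled arrays. KIRREL2, a nephrin-like adhesion molecule, had -1.54, -1.47, -3.65 and -3.32 in the same order. A further KIRREL2 probe gave -0.036, -0.13, 0.18 and 0.0055 on the scale of the rule. DMD (dystrophin) had -1.59, -1.93, -3.20 and -3.30 on its chosen probe, and its other probes differed. On the scale of the rule, a further DMD probe gave -0.32, -0.41, 1.05 and 1.58. The remaining DMD probes gave 0.40, 0.49, -0.05 and -0.11, and -0.79, -0.52, -0.81 and -0.79. RGS16, a regulator of G protein signalling, had -1.61, -2.08, -3.23 and -3.24. NTF4, a neurotrophin, had -1.72, -1.39, -3.24 and -3.36. ANGPTL4, an inhibitor of lipoprotein lipase, had -1.49, -1.28, -3.37 and -2.81. RIMS2, a scaffold of the presynaptic active zone, was not called and ran the other way, at -3.13 and -2.86 in GALNT3 KO and -2.57 and -2.13 on the GALNT3/T6-labelled arrays (difference 0.64 ± 0.20, limma adjusted p = 0.0843).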
